A study of Mus musculus with 8 samples.

Results

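The interleukin-1 family genes described here are 10 of the 32285 mouse genes counted in brain immune cells, 4 ligands (Il1b, Il1a, Il1rn and Il18) and 6 receptor genes (Il1r1, Il1r2, Il1rap, Il18r1, Il18rap and Il1rl1). They were chosen by gene symbol, and all 10 were found in the count matrices. The study asked how inflammation of the gut changes the immune cells of the brain in a mouse model of amyloid plaque formation. Cells carrying CD45.2, a marker of blood-derived and resident immune cells, were sorted from the brain parenchyma of mice perfused with PBS and were profiled as 8 single-cell libraries with the 10x Genomics 5′ kit, 1 library for each condition. All mice were on a C57BL/6J background and were 16 weeks old per the labels, and the methods name male and female mice. The WT mice and the APPNL-G-F knock-in mice (called App here), whose amyloid precursor gene carries a humanized amyloid-β sequence with the Swedish, Arctic and Iberian mutations, each formed 4 conditions. The control mice drank water, the acute colitis mice drank 2% dextran sulfate sodium (DSS) for 1 week, and the chronic colitis mice had 3 cycles of 2% DSS and water of 5 days each. The food allergy mice were sensitized to ovalbumin with alum and then fed ovalbumin. An antibody against CD45 was injected before perfusion to mark cells inside vessels, and the sources do not say whether marked cells were left out of the sort, so cells of the blood cannot be told apart from cells of the tissue.

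IL-1α and IL-1β bind the receptor encoded by Il1r1, which signals together with the accessory protein encoded by Il1rap. The receptor antagonist encoded by Il1rn occupies the same receptor without a signal, and the decoy receptor encoded by Il1r2 captures IL-1 without a signal. IL-18 signals through the pair encoded by Il18r1 and Il18rap, and Il1rl1 encodes ST2, the receptor of IL-33. IL-1β and IL-18 are made as precursors that inflammasomes activate, so transcript levels do not give the amount of active cytokine.

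Over the 8 libraries, 50112 cells were called, 4877 to 7200 per library, with 26988646 to 56307389 UMIs (unique molecular identifiers, each 1 captured transcript) per library. Cells were assigned to types by sets of 6 marker genes that held no family member, which placed 52.5% to 64.2% of the cells of a library, and 19 types with at least 20 cells in at least 6 libraries were described. In 60 of 60 checks, a marker kept out of these sets was above the median of the other types in every library. Microglia, the resident macrophages of the parenchyma, numbered only 63. Cells carried hashtag antibodies numbered 4 to 7, all 4 of them in 6 libraries and 3 in WT food allergy and App acute colitis, where no cell was called for hashtag 6, and the sources do not say which mouse a hashtag marks. The 29 hashtag groups with enough T cells fell into sets of 13 and 16 by the summed level of 10 immediate-early genes (Fos, Jun, Egr1 and others, which respond within minutes to activation or handling) in their T cells, at 577 to 1679 and at 2910 to 6270 CPM (UMIs of a gene scaled to a fixed total for the cells summed). The higher set held exactly 2 hashtags of each condition. Between 34 and 72 cell barcodes were shared by any pair of libraries.

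The receptor genes other than Il1rap lie on chromosome 1 of GRCm38 in the order Il1r2 (40074079 to 40125231), Il1r1 (40225080 to 40317257), Il1rl1 (40429570 to 40465415), Il18r1 (40465552 to 40500854) and Il18rap (40515362 to 40551705), all on the plus strand. Genes outside the members were not placed, so these need not be direct neighbours. Il1rap lies on chromosome 16 at 26581704 to 26730117. Of the ligands, Il1a (129299610 to 129309972), Il1b (129364570 to 129371139) and Il1rn (24336853 to 24351494) lie on chromosome 2, the first pair on the minus strand, and Il18 lies on chromosome 9 at 50554827 to 50581840. The 250 bases before the RefSeq start (GRCm38.p6, 1 start listed for each of these 3 genes) are printed for the 3 members on which the results turn most, Il1b (hashtag groups and neutrophil maturity), Il1r2 (neutrophils and monocytes) and Il18 (cDC1). Capitals mark matches to the motifs searched. The stretches are Il1b at chr2:129371140-129371389 on the minus strand, Il1r2 at chr1:40085843-40086092 on the plus strand, and Il18 at chr9:50554450-50554699 on the plus strand. The Il1r2 stretch lies inside the gene span given above, because its RefSeq start is downstream of the start of that span. The bases before that earlier start were not searched.
Il1b: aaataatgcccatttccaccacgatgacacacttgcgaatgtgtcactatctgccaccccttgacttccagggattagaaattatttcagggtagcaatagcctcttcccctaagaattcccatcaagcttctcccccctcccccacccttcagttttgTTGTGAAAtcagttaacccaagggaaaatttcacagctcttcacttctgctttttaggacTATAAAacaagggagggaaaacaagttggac
Il1r2: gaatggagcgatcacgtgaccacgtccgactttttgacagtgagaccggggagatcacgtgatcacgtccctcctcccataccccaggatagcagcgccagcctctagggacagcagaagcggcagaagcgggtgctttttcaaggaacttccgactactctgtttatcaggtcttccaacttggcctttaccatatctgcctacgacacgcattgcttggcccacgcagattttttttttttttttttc
Il18: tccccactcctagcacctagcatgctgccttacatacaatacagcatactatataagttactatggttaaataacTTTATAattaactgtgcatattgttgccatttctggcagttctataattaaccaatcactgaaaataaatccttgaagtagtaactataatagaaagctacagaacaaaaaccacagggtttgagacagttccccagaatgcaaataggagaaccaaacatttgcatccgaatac

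The motifs searched, on both strands and with overlapping matches counted, were AP-1 (TGANTCA), the cyclic AMP element (TGACGTCA), C/EBP (TTNNGNAA), PU.1 (GAGGAAGT), the TATA box (TATAAA) and NF-kB. The Il1b stretch held a TATA box 31 bases and a C/EBP match 91 bases before the start, the Il18 stretch held a TATA box on the other strand at 175 bases, and the Il1r2 stretch held no match to any of them. A C/EBP match was present in 36.8% of all 32851 promoters and a TATA box in 12.4%. Il1a also held both, with an AP-1 match at 12 bases, and AP-1 matches were present in 6.75% of all promoters. Such a match is a run of letters in the window and does not show that a factor was bound.

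Il1b had its highest mean level in neutrophils, followed by cDC2 (the dendritic cells that present antigen to CD4 T cells). In neutrophils its level over the 8 libraries ran from 46.9 CPM in App acute colitis through a median of 1629 CPM to 6380 CPM in WT acute colitis (mean 2035 ± 1922, SD, n = 8). The App acute colitis value came mostly from hashtag 7, with 1101 neutrophils at 0.908 CPM. Its hashtags 4 and 5 held 2868 and 1781 CPM. In cDC2 Il1b ran from 632 through 1267 to 1626 CPM (1187 ± 385, n = 7), in border macrophages (Mrc1- and Pf4-expressing macrophages of the brain's surfaces) from 167 through 456 to 837 CPM and in monocytes from 77.7 through 241 to 1103 CPM. The neutrophil libraries spread widely and the cDC2 libraries were close together, so the order of these types was not fixed in library sums: neutrophils were higher than cDC2 in 4 of 7 libraries (mean log2 difference 0.02 ± 2.06 SD, exact sign-flip permutation test, p = 1). These sums were unlike in their hashtag groups. All 8 cDC2 groups with at least 20 cells were in the higher immediate-early set. Neutrophil sums of the App libraries also held groups of the lower set, at 0.908 to 217 CPM. cDC2 were higher than border macrophages in 7 of 7 libraries by 1.5 ± 0.55 on the log2(CPM + 10) scale (p = 0.0156, adjusted p = 0.0651, exact test). At least 1 Il1b UMI was found in 63.4% of cDC2 and 49.3% of neutrophils, against 0.736% of B cells, which should lack it, at median depths of 8106, 5983 and 2513 UMIs. After every cell was thinned to 1000 UMIs these shares were 40.8%, 39.4% and 0.303%. RNA outside cells held Il1b at 64.0 to 1130 CPM.

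Il1a, the second agonist, was rare. All gated cells held 188 Il1a UMIs, and its means were 6.58 ± 7.99 CPM in neutrophils (n = 8) and 6.13 ± 4.31 CPM in cDC2 (n = 7), which did not differ beyond their spread (higher in neutrophils in 3 of 7 libraries, exact p = 0.984). Without WT acute colitis the neutrophil mean was 3.85 CPM. The 63 microglia held 12 of these UMIs, which came to 47.3 CPM with an exact 95% Poisson interval of 24.5 to 82.7 CPM that covers counting error only. They were described with no test because a single library had 20 microglia.

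Il1rn, the antagonist, was mostly a neutrophil transcript. Its levels in neutrophils ran from 22.8 CPM in App acute colitis through a median of 84.6 CPM to 285 CPM in WT acute colitis, the same libraries that held the lowest and the highest Il1b level. Border macrophages came next at 15.6 ± 23.9 CPM, a mean that rested on 19 UMIs in 1 cell of WT control and was 7.45 CPM without that library. Monocytes held 8.55 ± 6.89 CPM and cDC2 6.07 ± 7.17 CPM. Neutrophils were above border macrophages in 7 of 8 libraries (log2 difference 2.18 ± 1.21, exact p = 0.0156, adjusted p = 0.0651), and the types after them did not differ from their neighbours beyond their spread. A UMI was found in 30.9% of neutrophils and 0.198% of B cells.

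Il18 had a different pattern and was highest in cDC1, the dendritic cells that cross-present antigen to CD8 T cells. It ran there from 29.7 through 44.6 to 86.6 CPM (51.2 ± 22.1, n = 8), with both control libraries at the top (84.5 and 86.6 CPM) and the 6 treated libraries at 29.7 to 48.3 CPM. cDC2 followed at 26.2 ± 7.30 CPM, below cDC1 in 7 of 7 libraries (log2 difference 0.74 ± 0.36, exact p = 0.0156, adjusted p = 0.0651). Border macrophages (21.6 CPM), monocytes (18.6 CPM), haematopoietic progenitors (14.5 CPM) and B cells (11.7 CPM) did not differ from their neighbours beyond their spread. Neutrophils, the type with the highest mean of the other 3 ligands, held 1.51 ± 0.888 CPM of Il18. Fibroblasts, present in 5 libraries and therefore not ranked, had 42.9 ± 15.0 CPM.

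**Figure D1:**
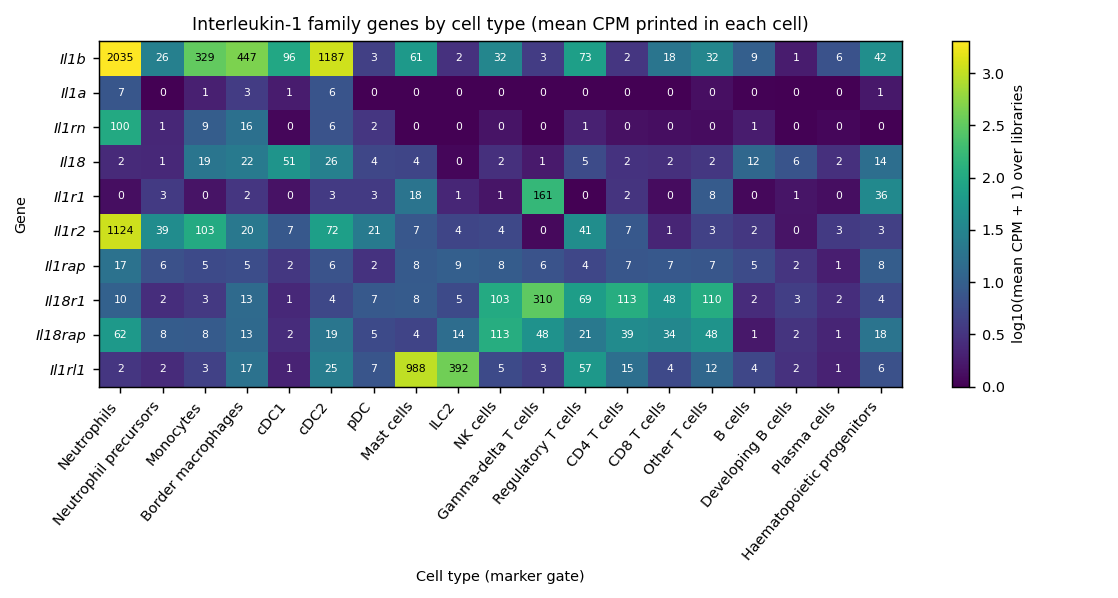
Mean level of each of the 10 members over libraries (colour, log10 of mean CPM + 1, with the mean CPM printed) in the 19 described cell types. Il1b, Il1rn and Il1r2 are brightest in neutrophils, Il18 in cDC1, Il1r1 and Il18r1 in gamma-delta T cells, Il18rap in NK cells and Il1rl1 in mast cells and ILC2.

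The signalling receptor gene Il1r1 was found mainly in gamma-delta T cells, innate-like lymphocytes that respond to IL-1β. It ran there from 102 CPM in App chronic colitis through 149 to 246 CPM in WT control (161 ± 55.6, n = 8), with both controls above all treated libraries. Haematopoietic progenitors followed at 36.0 ± 23.8 CPM, lower in 7 of 7 libraries (log2 difference 2.04 ± 1.22, exact p = 0.0156, adjusted p = 0.0651). A UMI was found in 38.8% of gamma-delta T cells and 0.256% of neutrophils. Fibroblasts of 5 libraries held 71.7 ± 38.1 CPM.

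Il1r2, the decoy receptor gene, was a neutrophil transcript in every library. It ran from 528 CPM in App chronic colitis through 986 to 2256 CPM in WT control (1124 ± 564, n = 8), and neutrophils were above monocytes, the next type, in 8 of 8 libraries (log2 difference 4.27 ± 1.48, exact p = 0.00781, the smallest that 8 libraries allow, adjusted p = 0.0651). Monocytes at 103 ± 170 CPM, cDC2 at 72.4 ± 57.5 CPM and regulatory T cells, the Foxp3-expressing suppressive subset, at 41.0 ± 57.7 CPM did not differ beyond their spread. The monocyte value rested on WT control (508 CPM), since the median over libraries was 33.4 CPM, and the regulatory T cell value was 20.9 CPM without WT acute colitis. Il1rap, the accessory chain shared by the IL-1 and IL-33 receptors, was low everywhere, with 16.7 ± 9.81 CPM in neutrophils and 8.95 ± 3.58 CPM in ILC2 (neutrophils higher in 7 of 8 libraries, log2 difference 0.45 ± 0.41, exact p = 0.0312, adjusted p = 0.104).

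Il18r1 and Il18rap, the 2 chains of the IL-18 receptor, were highest in different types. Il18r1 was highest in gamma-delta T cells, from 174 CPM in WT control through 323 to 386 CPM in WT acute colitis (310 ± 69.5, n = 8), above CD4 T cells (113 ± 42.9 CPM) in 8 of 8 libraries (log2 difference 1.43 ± 0.57, exact p = 0.00781, adjusted p = 0.0651). CD4 T cells, other T cells (110 ± 20.6 CPM) and NK cells (103 ± 29.6 CPM) did not differ beyond their spread. The other T cells lay outside the gamma-delta and regulatory gates and had markers of both CD4 and CD8 T cells or of neither. Il18rap was highest in NK cells, from 72.0 CPM through 107 to 164 CPM (113 ± 29.8), above neutrophils (61.5 ± 12.3 CPM) in 8 of 8 libraries (log2 difference 0.76 ± 0.48, exact p = 0.00781, adjusted p = 0.0651). A UMI of Il18rap was found in 31.5% of neutrophils, while 5.33% of them had a UMI of Il18r1 (9.81 ± 4.77 CPM). Basophils of 5 libraries, not ranked, had 183 ± 83.2 CPM of Il18r1 and 234 ± 56.8 CPM of Il18rap.

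Il1rl1, the IL-33 receptor gene, was highest in mast cells and ILC2. Mast cells held 868 through 918 to 1286 CPM (988 ± 161, n = 7) and ILC2, the innate counterparts of type 2 helper T cells, held 343 through 375 to 459 CPM (392 ± 45.7, n = 8). Mast cells were above ILC2 in 7 of 7 libraries (log2 difference 1.34 ± 0.30), and ILC2 above regulatory T cells (57.2 ± 42.4 CPM) in 7 of 7 (2.84 ± 0.92, each with exact p = 0.0156 and adjusted p = 0.0651). The regulatory T cell level was 11.2 CPM in WT control and 119 CPM in App chronic colitis, from 2 and 24 UMIs. No neighbouring pair of any member passed an adjusted p of 0.05 among the 50 tested, with 17 below an unadjusted 0.05. With 7 or 8 libraries an exact sign-flip test cannot go below 0.0156 or 0.00781, so the order of types rests on the direction in each library.

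Because neutrophils were numerous as well as rich in these transcripts, they held most of several members' UMIs over all libraries together. They made up 14.1% of gated cells on average and held 71.4% of the 54228 Il1b UMIs of all gated cells. WT food allergy gave 16726 of their 38739 Il1b UMIs. Their mean share over libraries was 64.0 ± 21.0% (SD), between 38.0% in WT control and 88.7% in App food allergy. It was 43.2% in App control and 46.1% in App acute colitis. In WT control monocytes held more Il1b UMIs than neutrophils, at 44.6%. Over all libraries together, cDC2, 1.42% of gated cells on average, held 7.71% of Il1b UMIs. Neutrophils also held 86.1% of Il1rn, 91.0% of Il1r2 and 54.8% of Il1a UMIs, while gamma-delta T cells, 3.87% of gated cells, held 63.1% of Il1r1 UMIs. ILC2 held 57.8% and mast cells, 0.986% of gated cells, 19.9% of Il1rl1 UMIs. For Il18, cDC1 held 36.8% and monocytes 20.7%.

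**Figure D2:**
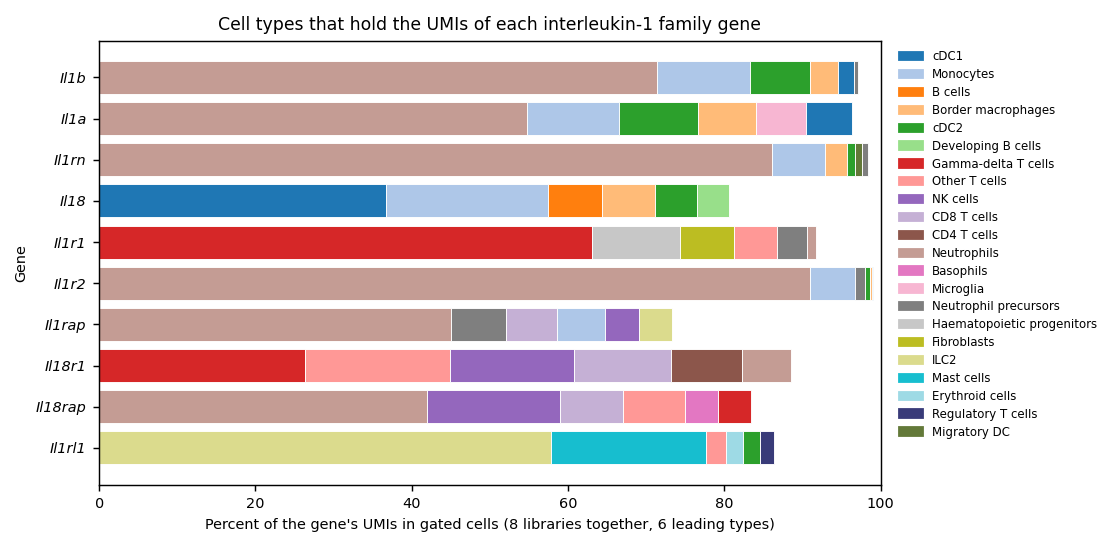
Share of each member's UMIs in gated cells (horizontal axis, percent, 8 libraries together) by cell type (colour), with the 6 leading types of each member drawn. Neutrophils fill most of the Il1b, Il1rn and Il1r2 bars, gamma-delta T cells most of Il1r1 and ILC2 most of Il1rl1.

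The balance of antagonist to agonist was compared as log2 of (Il1rn CPM + 10) over (Il1b CPM + 10) within each library. It was lowest in cDC2, at a mean of -6.26 over 7 libraries, and lay below neutrophils by 2.60 ± 1.66, monocytes by 2.34 ± 1.29, border macrophages by 2.02 ± 0.42 and cDC1 by 3.01 ± 0.88, each in 7 of 7 libraries (exact permutation test, adjusted p = 0.0312 over 10 pairs). Border macrophages were below cDC1 in 8 of 8 libraries by 1.04 ± 0.80 (adjusted p = 0.0312, exact), but with 1 CPM added instead of 10 this difference turned to 0.91 in the other direction. With 1 CPM added, neutrophils and monocytes were instead above cDC1, by 2.47 and 1.5 (adjusted p = 0.0312 for each, exact), and the difference of cDC1 and cDC2 did not pass (1.88, adjusted p = 0.117). The other 5 pairs did not pass with 10 CPM added. Leaving out 1 library left 0 passing pairs in 7 of 8 cases, where fewer libraries also raise the smallest p that the test allows.

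Neutrophils were divided by secondary granule transcripts (at least 2 of Ltf, Camp and Ngp detected), which are made while neutrophils mature and fade afterwards. Il1b was 7917 ± 3117 CPM in neutrophils without them and 786 ± 503 CPM in those with them, higher in the former in 8 of 8 libraries (log2 difference 3.75 ± 1.65, exact permutation test, adjusted p = 0.0195 over 10 members). The former ran from 3883 CPM in App control to 13977 CPM in WT acute colitis, and the latter from 20.9 CPM in App acute colitis to 1777 CPM in WT food allergy, so the 2 kinds did not overlap in library sums. Single hashtag groups did overlap. Neutrophils without these transcripts held 361 CPM in App chronic colitis hashtag 5, while those with them held 1749 CPM in hashtag 7 of that library. A further 3 members were higher in neutrophils without these transcripts in 8 of 8 libraries at the same adjusted p. They were Il1rn (228 ± 113 against 72.6 ± 37.6 CPM, log2 difference 1.53 ± 0.68), Il1r2 (2155 ± 831 against 904 ± 537 CPM, 1.34 ± 0.60) and Il1rap (46.8 ± 33.1 against 13.8 ± 8.40 CPM, 1.12 ± 0.54). Of the other 6 members, Il1a differed by 0.91 ± 0.73 (adjusted p = 0.0625), Il18rap by 0.26 ± 0.36 (adjusted p = 0.143) and Il18r1 by -0.16 ± 1.09 (adjusted p = 0.879). The Il1b difference was 3.23 in the hashtag groups with high immediate-early levels alone, where fewer libraries had enough cells of both kinds and the exact adjusted p was 0.0625. Neutrophils without these transcripts had lower median depths, 2648 against 7169 UMIs. The share of all genes that differ between these kinds of neutrophil was not computed, so the count of members cannot be set against it.

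**Figure D3:**
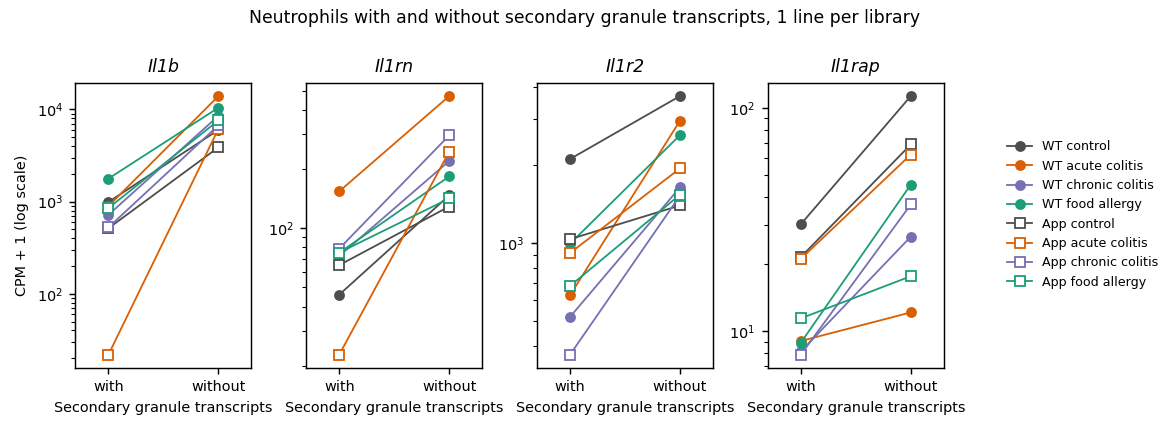
Il1b, Il1rn, Il1r2 and Il1rap in neutrophils with and without secondary granule transcripts (vertical axis, CPM + 1, log scale), 1 line per library joining its 2 values (filled circles WT, open squares App). All 8 lines rise towards the neutrophils without these transcripts in each of the 4 panels.

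Il1b differed between the hashtag groups of high and low immediate-early level. Neutrophil Il1b was 0.908 to 217 CPM in the 7 low-set groups with at least 20 neutrophils, all of them App, and 818 to 8036 CPM in the 16 high-set groups, with no overlap. The share of all genes that separate these sets in this way was not computed. The App acute colitis group of hashtag 7 stood apart, with 1101 neutrophils, 99.6% of them with secondary granule transcripts, and 13 Il1b UMIs (0.908 CPM), while the same cells held 13480 UMIs of Il1r2 (942 CPM). Within neutrophils that lacked secondary granule transcripts the split was also present, at 357 to 1277 CPM in the low set and 5327 to 15382 CPM in the high set. Monocytes of the 5 low-set groups held no Il1b UMI, which allows up to 3.04 to 15.8 CPM in a group, against 75.7 to 1240 CPM in the 16 high-set groups.

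In a fit of all hashtag groups with condition and the immediate-early level as terms (edgeR quasi-likelihood test, Benjamini-Hochberg adjustment over all genes), 8 of 23 member tests rose with that level and none fell, where 4.83% of all gene tests passed. Il1b rose per doubling of the T cell level by 2.73 ± 0.25 (SE) on the log2 scale in monocytes (adjusted p = 1.22e-07), 2.13 ± 0.30 in neutrophils (adjusted p = 1.42e-05), 2.2 ± 0.37 in neutrophil precursors (adjusted p = 0.00356) and 2.59 ± 0.42 in border macrophages (adjusted p = 0.016). In these types 16.5%, 8.51%, 1.40% and 0.168% of all genes tested passed. Neutrophil markers summed to 113 to 49045 CPM in border macrophages. In neutrophil precursors they summed to 15800 to 65381 CPM in the high set and 367 to 10456 CPM in the low set. Border macrophage markers in monocytes summed to 192 to 5868 CPM in the high set, above every low-set group. Neutrophil and cDC2 markers in monocytes overlapped between the sets. The part of these markers in the rises of Il1b, and in those of Il1r2 and Il18 given next, was not tested. Il1r2 rose by 0.93 ± 0.16 in neutrophils (adjusted p = 0.000165), 1.53 ± 0.22 in neutrophil precursors (adjusted p = 0.000754) and 1.04 ± 0.34 in monocytes (adjusted p = 0.0421), and Il18 rose by 1.2 ± 0.16 in monocytes (adjusted p = 2.51e-05). Il1rn in neutrophils (0.15 ± 0.15, adjusted p = 0.648), Il18rap in neutrophils (-0.15 ± 0.08, adjusted p = 0.283) and Il1rl1 in ILC2 (0.01 ± 0.05, adjusted p = 0.964) did not pass. Il1rl1 in ILC2 was 257 to 565 CPM in the low set and 303 to 485 CPM in the high set.

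Within the high set alone only Il1b in border macrophages passed among 22 tests (0.0158% of all gene tests passed), the type in which no low-set group had 20 cells. Within the low set alone none of 7 passed, 1 had an unadjusted p under 0.05, and the slopes in neutrophils were -0.79 for Il1b and -1.48 for Il1r2 (adjusted p = 0.997 for each, edgeR). In the fit of all groups, all 10 immediate-early genes rose in monocytes and in neutrophils. The level fitted is the sum of these same genes in T cells of the same groups, so their rise is no separate support. Of 5 NF-kB feedback targets, Nfkbia, Nfkbiz, Tnfaip3 and Cxcl2 rose in both monocytes and neutrophils, Cxcl2 by 2.93 ± 0.19 in neutrophils (adjusted p = 1.06e-10), and of 8 inflammasome genes Nlrp3 rose by 1.56 ± 0.25 in neutrophils (adjusted p = 7.59e-05). Of all genes tested, 16.5% passed in monocytes and 8.51% in neutrophils, in either direction. The immediate-early level and the hashtag itself cannot be told apart.

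**Figure D4:**
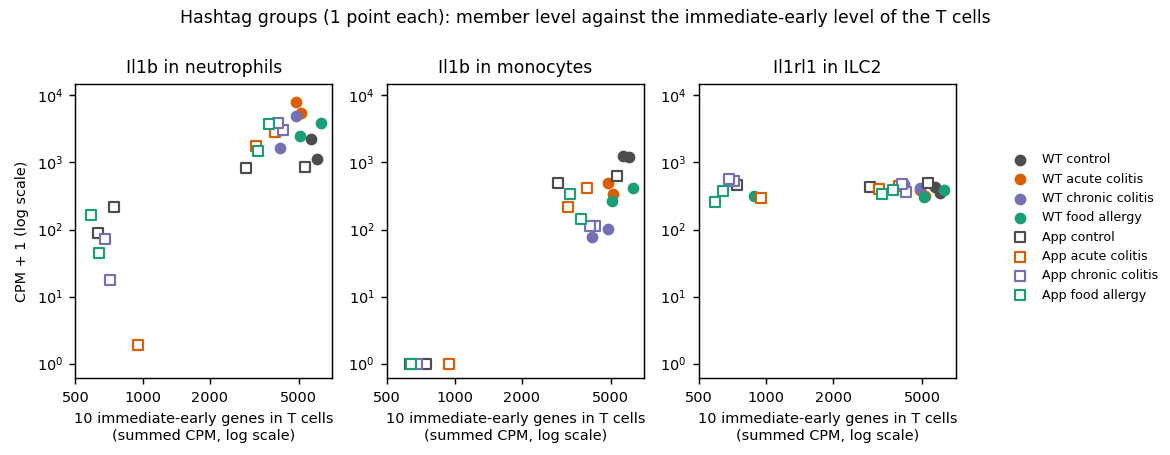
Il1b in neutrophils and monocytes and Il1rl1 in ILC2 (vertical axis, CPM + 1, log scale) against the summed immediate-early level of T cells of the same hashtag group (horizontal axis, CPM, log scale), with 1 point per group (filled circles WT, open squares App). For Il1b, low-set neutrophil groups lie between 0.908 and 217 CPM and high-set groups between 818 and 8036 CPM, while Il1rl1 in ILC2 is 257 to 565 CPM in the low set and 303 to 485 CPM in the high set.

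Differences between conditions were tested on UMIs summed per hashtag group and cell type, with all conditions of a type in 1 edgeR fit. If hashtags mark samples that were not separate mice, these p-values measure technical spread only. For App chronic colitis the study states fewer mice than there were hashtags, so some of its groups may share a mouse and p-values over them may be too small. For App acute colitis it states more mice than there were hashtags with cells, so a group there may hold several mice. Its hashtag 7 group held 3657 cells, against 1287 and 1355 in hashtags 4 and 5. Over 12 cell types, 280 member tests gave 10 with adjusted p below 0.05, 4 higher and 6 lower, and 56 below an unadjusted 0.05. Over the same contrasts, 1.36% of all gene tests passed. In bulk sums of a cell type, fewer cells of a subtype and less RNA per cell cannot be told apart.

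Il18 was lower in cDC1 under treatment. All 16 groups with enough cDC1 belonged to the high immediate-early set. Its level was 79.5 and 114 CPM in WT control and 101 and 69.8 CPM in App control, against 30.7 and 41.2 CPM in WT acute colitis, 25.6 and 54.1 CPM in WT chronic colitis and 36.0 and 39.7 CPM in WT food allergy. App acute colitis had 26.8 and 34.4 CPM, App chronic colitis 51.2 and 50.2 CPM and App food allergy 42.6 and 56.6 CPM. Every treated group lay below every control group, and the share of all genes that separate in this way was not computed. The log2 change was -1.39 ± 0.31 in WT acute colitis (adjusted p = 0.0047, 4.95% of 6785 genes called), -1.13 ± 0.31 in WT chronic colitis (adjusted p = 0.0262, 4.73% called), -1.29 ± 0.35 in WT food allergy (adjusted p = 0.0395, 2.45% called) and -1.46 ± 0.30 in App acute colitis (adjusted p = 0.00838, 1.33% called). The 3 WT changes share the same control groups. Il18 in App chronic colitis and in App food allergy against App control did not pass. With 2 groups per condition, the removal of single groups ended most of these calls: 2 of 4 removals kept the WT acute colitis call, 1 of 4 the WT chronic colitis and App acute colitis calls and 0 of 4 the WT food allergy call, with log2 changes of -0.72 to -1.73 throughout. The WT acute call ended without WT control hashtag 7 (-1.15, adjusted p = 0.13) or WT acute hashtag 4 (-1.09, adjusted p = 0.206), and DESeq2 kept only that call of the 4. Border macrophage markers summed to 60.0 to 147 CPM in control and 20.1 to 480 CPM in treated cDC1, and monocyte markers to 595 to 1294 and 412 to 825 CPM, and their part in the result was not tested. Myd88, the adaptor of IL-1 and IL-18 receptor signalling, was also lower in cDC1 in 5 of the 6 treated contrasts, by 1.71 ± 0.23 in WT acute colitis (log2 change -1.71, adjusted p = 5.12e-06). No other gene of the signalling list passed in cDC1 in these contrasts.

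Il18r1 in gamma-delta T cells was above WT control in every treated WT group, and the change passed the test in both colitis conditions. WT control groups held 187 and 118 CPM, WT acute colitis 407 and 380 CPM, WT chronic colitis 404, 364 and 368 CPM, and WT food allergy 341 and 305 CPM. The log2 change was 1.33 ± 0.33 in WT acute colitis (adjusted p = 0.0247, edgeR, 2.79% of 4338 genes called) and 1.23 ± 0.31 in WT chronic colitis (adjusted p = 0.0267, 3.67% called), while the change of 1.0 ± 0.34 in WT food allergy did not pass (adjusted p = 0.15). The 3 App control groups spread from 139 to 432 CPM, and no App change against them passed. Neutrophil markers in these cells summed to 3.78 to 107 CPM in control and 15.8 to 9559 CPM in treated high-set groups, and their part was not tested. Only 1 of 4 and 1 of 5 removals of a group kept the WT calls, the adjusted p being 0.198 and 0.248 without WT control hashtag 7. In the high set alone both calls stood, at 1.33 ± 0.31 for acute (3.45% called) and 1.22 ± 0.31 for chronic colitis (2.8% called). Il1r1 in the same cells did not pass. In the high set it was 240 to 330 CPM in the 4 control groups and 62.8 to 182 CPM in the 12 treated groups, with no overlap, but the change was -1.14 in WT chronic colitis (adjusted p = 0.0942) and -1.20 in App chronic colitis (adjusted p = 0.31). For neither gene was the share of all genes whose groups separate in this way computed.

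Il1r2 fell in monocytes of WT chronic colitis. WT control held 481 and 723 CPM and WT chronic colitis 12 and 5.65 CPM (log2 change -5.92 ± 1.54, adjusted p = 0.0217, edgeR, with 11.9% of 7227 genes called). The call ended in 4 of 4 removals, at adjusted p of 0.055 to 0.236. Il1b was higher in the other T cells in WT acute colitis (5.58 ± 1.35, adjusted p = 0.0193, 2.61% called) and WT food allergy (5.60 ± 1.32, adjusted p = 0.018, 1.88% called), from groups with 0 to 1 Il1b UMI in control to 2.09 and 132 CPM and to 37.9, 144 and 12.7 CPM. Without WT acute colitis hashtag 5, which held 41 of the 42 UMIs of its condition, the change was 0.94 (adjusted p = 0.973). Neutrophil markers in these T cells summed to 19.9 to 148 CPM in control and 91.6 to 3134 CPM in treated groups, and their part was not tested. Each call was kept by 2 of 6 removals, and in the high set alone neither passed (adjusted p = 0.153 and 0.133, edgeR). RNA outside cells held Il1b at 395 CPM in WT acute colitis and 1130 CPM in WT food allergy, and its part was not tested. The remaining call, Il1a in neutrophils, was a difference between genotypes: the acute colitis change was lower in App than in WT by 8.10 ± 1.73 on the fitted log2 scale (-8.10, adjusted p = 0.0378, edgeR, 0.539% called), with 24.4 and 27.0 CPM in WT acute colitis and no UMI in the 3 App acute colitis groups. That fitted value depends on groups at 0 and is not a bound, and 4 of 11 removals of a group kept it, the adjusted p being 0.728 without App acute colitis hashtag 7. It did not pass with the immediate-early level as a term (adjusted p = 0.1, edgeR) or in the high set alone (adjusted p = 0.552).

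The 16 high-set groups, 2 per condition, were also fitted alone, a choice made after the data had been seen. There 32 of 275 member tests passed and 95 were below an unadjusted 0.05, with 2.40% of all gene tests passing. Il1b in neutrophils rose in WT acute colitis by 1.85 ± 0.40 (adjusted p = 0.00257, 17.7% of 5208 genes called), from 1120 and 2234 CPM to 5482 and 8036 CPM, and in App chronic colitis by 1.81 ± 0.40 (adjusted p = 0.00693, 7.35% called), from 818 and 854 CPM to 3005 and 3815 CPM. Il1rn rose by 1.48 ± 0.45 with chronic and 2.38 ± 0.44 with acute colitis of WT mice, and by 1.41 ± 0.42 in App chronic colitis, while Il1r2 fell by 0.68 (log2 change -0.68 ± 0.23), 1.28 (-1.28 ± 0.24, 10.6% called) and 1.15 (-1.15 ± 0.26, 3.19% called) in WT acute, WT chronic and App acute colitis. The share of neutrophils with secondary granule transcripts moved with these, from 84.3% and 75.3% in WT control to 41.0% and 29.5% in WT acute colitis and from 88.9% and 87.2% in App control to 65.2% and 56.6% in App chronic colitis, and its part was not tested. Among neutrophils without these transcripts, Il1b was 5327 and 6890 CPM in WT control and 14133 and 14386 CPM in WT acute colitis. Among those with them, the groups overlapped, at 765 and 1405 CPM in WT control and 907 and 1063 CPM in WT acute colitis.

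In monocytes of the high set, Il1r2 and Il1b were lower under treatment. The share of all genes whose control and treated groups separate without overlap was not computed. Il1r2 was 481 and 723 CPM in WT control and 57.9 and 335 CPM in App control, against 0 to 27.8 CPM in the 12 treated groups, and it passed in all 6 treated contrasts with log2 changes from -3.06 ± 0.54 in App food allergy (0.455% called) to -7.50 ± 0.86 in WT acute colitis. In App acute colitis, where Il1r2 was the called member, 2.69% of genes passed. Il1b fell in 4 of them, from 1197 and 1240 CPM in WT control to 75.7 and 102 CPM in WT chronic colitis (-3.98 ± 0.33, adjusted p = 4.14e-08, 29.7% of 7259 genes called). It fell as well in WT acute colitis (-1.63 ± 0.30, 10.8% called), WT food allergy (-1.89 ± 0.28, 11.6% called) and App chronic colitis (-2.43 ± 0.33, 3.11% called). App control monocytes were below WT control for Il1b (-1.11 ± 0.28), Il1r2 (-1.48 ± 0.38) and Il1rn (-2.87 ± 0.69), with 5.92% called. Markers of border macrophages in these monocytes summed to 2442 to 5868 CPM in control and 192 to 2916 CPM in treated groups, and neutrophil markers to 1641 to 8148 and 107 to 16053 CPM, and their part was not tested.

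**Figure D5:**
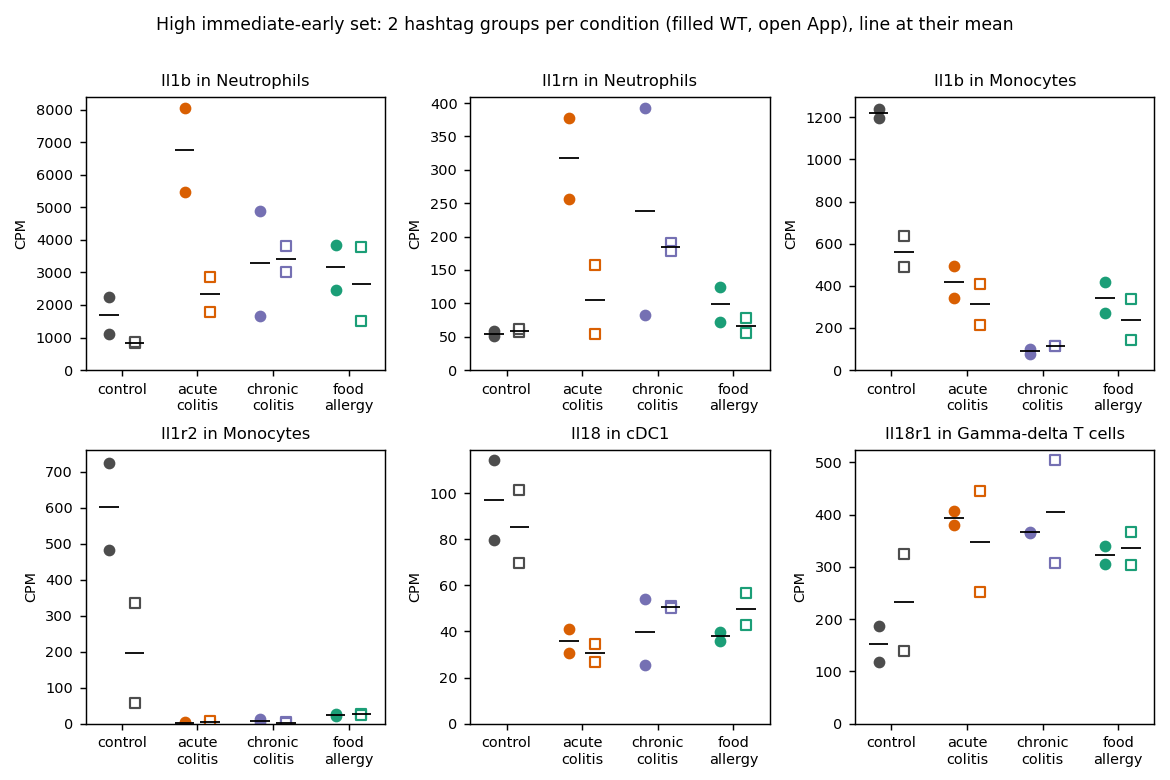
Level of 5 members in 6 panels by gene and cell type (vertical axis, CPM, linear scale from 0) in the 2 high-set hashtag groups of each condition (horizontal axis, filled circles WT, open squares App, lines at the mean). Neutrophil Il1b is higher in WT acute colitis (5482 and 8036 CPM) than in WT control (1120 and 2234 CPM), while monocyte Il1r2 and cDC1 Il18 are lower in every treated group than in every control group.

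The other genes of the pathway were taken from lists. Among 6 further ligand genes and the gene of the IL-18 binding protein, Il36g was a neutrophil transcript at 141 ± 63.1 CPM. Il18bp reached 14.3 ± 5.00 CPM in neutrophils, and Il36rn and Il1f10 had no UMI in gated cells. Il33 stayed at or below a mean of 3.74 CPM in the 19 described types. All gated cells held 453 Il33 UMIs, and its level in types not ranked, such as fibroblasts, was not computed. Sigirr, which dampens receptor signalling, was highest in gamma-delta T cells at 73.6 ± 19.3 CPM. All 8 signalling genes and all 8 inflammasome genes were detected. The adaptor gene Myd88 led in cDC2 (118 ± 58.4 CPM), the sensor gene Nlrp3 in neutrophils (129 ± 168 CPM) and Pycard, which links sensors to caspases, in monocytes (462 ± 69.1 CPM). Between conditions in the fit of all groups, Nlrp3 was lower in monocytes of WT chronic colitis (-1.74 ± 0.43, adjusted p = 0.0174, edgeR, 11.9% of genes called). It was also lower in those of App control against WT control (-1.42 ± 0.37, adjusted p = 0.0233, 547 of 7227 genes called). Other listed genes were called lower in these monocytes as well, Nfkbia in both contrasts, Gsdmd in WT chronic colitis and Tnfaip3 in App control.

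The genes whose mean log2(CPM + 10) over the 19 cell types was most like each member's were found among 9826 genes, without markers and members. For Il1b they were Gm34084, Wfdc17 and Tlr2 (Pearson's r of 0.95, 0.95 and 0.94), for Il1rn Fpr2, Fpr1 and Gm34589 (0.98, 0.98 and 0.97), and for Il1r2 Hcar2, Ifitm6 and Trem1 (0.94 each). Il18 was followed by Tbc1d9, BC028528 and Cbr3, Il1r1 by Hbegf, Sox13 and Rbpms2, Il18r1 by Cd247, Pvrig and Tcf7, and Il1rl1 by Gm20627, Csf1 and Il4, the last at 294 CPM in mast cells. Il1a (led by Ptgs2, 0.85), Il1rap (Ptp4a1, 0.81) and Il18rap (Lasp1, 0.82) had no match above 0.85. These correlations are descriptions over 19 points from the same 8 libraries.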

How the data were processed

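Immune cells sorted from mouse brain as CD45.2+ were profiled in 8 libraries, 1 per condition, so no test between libraries compares conditions. Per the labels the authors aligned reads and counted UMIs with Cell Ranger 6.1.2 on mm10, while the header of the matrices names Cell Ranger 4. The deposited values are raw counts per gene and barcode (32285 genes and 4 hashtags), with empty barcodes included. A deposited count is therefore not normalized.

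Barcodes were called as cells with an order-of-magnitude cutoff (3000 expected cells) or a test against the pool of empty barcodes (ranks 45000 to 90000, at least 500 UMIs, 1000 simulations, FDR 0.01), and were kept with 200 or more genes and mitochondrial UMIs of 5% or less. Cells were gated by 6 markers per type, where a type had to lead by 2 markers. Doublets were not called, and 5.44% to 12.2% of gated cells carried several hashtags. These stayed in library sums and were left out of hashtag groups. CPM were computed from UMIs summed per type and library (20 cells or more), with 10 CPM added before log2.

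Cell types were compared across libraries with two-sided exact sign-flip permutation tests. Conditions were compared on sums per hashtag group with edgeR 4.0.16 (quasi-likelihood test, TMM), with Benjamini-Hochberg adjustment over all genes of a fit. Named genes were the 10 members, the pathway lists, and for each member the 3 genes most like it over cell types. The members and lists were chosen with earlier results of these data known. Intervals (95%) and limits for a count of 0 (3 counts) cover counting error only. On simulated data for neutrophils in WT acute colitis (5127 genes), 49 of 100 genes changed by a log2 of 2 and 65 of 100 changed by 3 were recovered, with 7 false calls. Alternatives were other cell calls, marker leads, filters, pseudocounts, free RNA subtraction, DESeq2 1.42.0, and each library or group left out. Python 3.11.15, numpy 2.4.6, scipy 1.17.1, pandas 2.3.3 and R 4.3.3 were used. Gene positions came from GENCODE vM21 and promoters from RefSeq.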

Additional observations from a re-analysis of the deposited data

Results flagged for a closer look

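Among 39 sets of 4 hashtag groups of a condition, 4 held a group far from the other 3, where chance gives about 1 in 20. Il1a in neutrophils was 6.69 CPM in App chronic colitis hashtag 7 (3 UMIs in 136 cells) and 1.09 CPM in App food allergy hashtag 5 (1 UMI in 159 cells), with 0 in the other groups of each condition. With the other 3 groups at 0 a single UMI sets a group apart, so these 2 cases do not show that a group differed. In the other T cells (markers of both CD4 and CD8 T cells or of neither) of WT control, hashtag 6 held 176 CPM of Il18r1 (53 UMIs in 111 cells). The remaining groups held 85.6 to 95.9 CPM. The same group held 46.5 CPM of Il18rap (14 UMIs) against 30.0 to 32.0 CPM.

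The change of Il1a in neutrophils with acute colitis differed between the genotypes by -8.10 on the fitted log2 scale (App minus WT). WT control held 2.10 and 5.30 CPM, WT acute colitis 24.4 and 27.0 CPM, and the App control groups of the high set 5.06 and 5.36 CPM. All App acute colitis groups were at 0, so this value is no bound. The difference did not pass with the immediate-early level as a term (adjusted p = 0.1, edgeR) or in the high set alone (adjusted p = 0.552).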

How the results depend on the processing

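No paired analysis was possible because the labels give 1 library per condition and no shared replicate numbers. Of 10 member calls between conditions, DESeq2 gave 5 of 196 tests, no filter on low counts 47 of 1029, groups of at least 50 cells 4 of 172, the immediate-early level as a term 17 of 280 and the high immediate-early set alone 32 of 275. Of 8 calls with the immediate-early level, 1 remained in number within the high set and 0 within the low set, where the slopes in neutrophils turned to -0.79 for Il1b and -1.48 for Il1r2. The call that remained, Il1b in border macrophages, came from the same groups in both fits, so this alternative could not have ended it. Of 4 members that differed by secondary granule transcripts, 0 passed with the order-of-magnitude cutoff alone and 0 within the high set, where fewer libraries had both kinds of cell, and the count was 4 without each library in turn. Of 5 pairs that differed in the ratio of Il1rn to Il1b, 0 passed with a lead of 3 markers and 0 to 5 without 1 library, and with 1 CPM added the differences of border macrophages, neutrophils and monocytes from cDC1 turned to 0.91, 2.47 and 1.5. Between 7 and 10 members kept their highest cell type without 1 library, and no neighbouring pair in the order of types passed in any case. Where no construction above shows it, the cause was not tested. Over the single results followed (calls, compared pairs and mean levels, not all member tests), 619 values without 1 library or group kept their direction and side of the threshold and 73 lost the threshold. Under the other alternatives these were 789 and 48, with 4 passing newly and 5 turning direction. Few cells of the rarer types and 2 to 4 hashtag groups per condition limited these tests.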
